A study of Homo sapiens with 6 samples.

Results

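The lysosomal glycan hydrolases described here are 9 enzymes that take sugar chains apart inside the lysosome, namely NEU1, GLB1, MANBA, MAN2B1, FUCA1, GAA, NAGLU, SGSH and GUSB. They were chosen by gene symbol, as lysosomal glycosidases and sulfatases acting on glycoproteins, glycogen and glycosaminoglycans, and all 9 were found among the 31762 genes of the deposited count table, each on 1 row. The table comes from RNA sequencing of H460, a line of human large cell lung carcinoma cells that is labelled wild type. Cells of 3 fluoxetine libraries received 20 µM fluoxetine, a serotonin reuptake inhibitor, for 24 h, and the 3 control libraries are labelled only as control, without a named vehicle. The design thus holds 1 cell line, 1 dose and 1 time point, and nothing in the sample descriptions says whether the libraries of a group came from separate cultures, so the p-values measure the spread between these samples only.

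Glycoproteins, glycogen and glycosaminoglycans reach the lysosome by endocytosis and autophagy, and are degraded there stepwise from the end of each chain, so that every enzyme removes 1 kind of sugar or sulfate and hands the shortened chain to the next. The loss of a single enzyme blocks the chain at that step and causes a lysosomal storage disease. Most of these enzymes are tagged with mannose 6-phosphate in the Golgi and carried to the lysosome by receptors for that tag. Many lysosomal genes carry E-box letters of the CLEAR type before their start, which the transcription factor TFEB is known to bind.

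The promoter letters of 2 members are shown because they carry such E-boxes. RefSeq promoter windows (build GRCh38.p14, 250 bases before to 50 after the annotated start) were at hand for 6 of the 9 members, and not for MANBA, NAGLU and SGSH. The letters CACGTG were found in the windows of NEU1 and GAA, and not in those of GUSB, GLB1, MAN2B1 and FUCA1. The GLB1 window begins from a RefSeq start that lies 408 bases inside the gene, so it does not cover the bases before the outermost start. The stretch of NEU1 lies at chr6:31862907-31863071 on the minus strand and that of GAA at chr17:80101331-80101555 on the plus strand. Both are written 5′ to 3′ and end at the base before the gene as the deposited table delimits it, and the capitals mark CACGTG.
NEU1: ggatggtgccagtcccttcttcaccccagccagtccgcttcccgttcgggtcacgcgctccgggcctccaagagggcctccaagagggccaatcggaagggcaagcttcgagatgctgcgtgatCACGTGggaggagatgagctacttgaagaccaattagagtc
GAA: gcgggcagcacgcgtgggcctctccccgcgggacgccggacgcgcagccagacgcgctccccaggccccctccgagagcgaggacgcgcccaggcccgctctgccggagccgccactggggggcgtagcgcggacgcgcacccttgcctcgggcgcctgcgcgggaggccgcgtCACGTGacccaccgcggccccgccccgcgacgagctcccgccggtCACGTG
In NEU1 the first base of the E-box lies 41 bases before the gene and reads TCACGTG with its 5′ neighbour. GAA holds the E-box at 51 and at 6 bases before the gene, and both copies read TCACGTGA, the palindrome at the core of the CLEAR element, once the base after each is included. Read on both strands, CACGTG was found in 7.26% of all 35116 promoter windows, TCACGTG in 3.71% and TCACGTGA in 0.98%, the windows with a longer motif being a subset of those with the shorter ones. A match of letters is a description of these windows and does not show that a factor bound there.

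Reads counted on genes lay between 16157507 and 27823667 per library, and each fluoxetine library was shallower than each control library. Levels are given in CPM, counts scaled to library size after TMM normalization, and 3 counts were worth 0.108 to 0.182 CPM, a limit that covers counting error only. All 9 members passed the filter on low counts, the lowest single count being 276 for NAGLU in control replicate 3. The keratins KRT8, KRT18 and KRT19, which mark epithelial cells, were abundant, and the summed level of the 6 epithelial markers was 3058 to 4028 CPM in control and 2689 to 3264 CPM in fluoxetine libraries, and KRT18 fell by 0.72 on the log2 scale (edgeR adjusted p = 0.00162), although EPCAM averaged 0.414 CPM in control libraries and CDH1 had no count there. The 3 lung epithelial markers found (NKX2-1, SFTPC and NAPSA) together reached at most 0.684 CPM in a library, leukocyte markers at most 0.360 CPM and endothelial markers at most 0.182 CPM, and the 4 fibroblast markers 7.75 to 10.4 CPM in control and 7.86 to 8.86 CPM in fluoxetine libraries. In a bulk sample, fewer cells of a type and less RNA per cell cannot be told apart.

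Of the 9 members, NEU1 was upregulated 4.21-fold (95% interval 3.67 to 4.83), MANBA and GLB1 rose by less than 2-fold, and the other 6 did not pass the test. A gene was called where the quasi-likelihood test of edgeR gave a p-value under 0.05 after Benjamini-Hochberg adjustment over the 15646 tested genes. By this rule 3 of the 9 members were upregulated and 0 downregulated, against 7.76% of all tested genes called upregulated and 13.1% called in either direction. With a fold change of at least 2 as well, only NEU1 remained among the members, against 1.25% of tested genes upregulated by that rule. All 3 fluoxetine libraries lay above all 3 control libraries for 5 members (NEU1, GLB1, MANBA, GAA and NAGLU), which was the case for 17.5% of tested genes. The median log2 fold change of the members was 0.31, and 8 of the 9 values were above 0, beside a median of 0.03 over all tested genes. At an unadjusted p-value under 0.05 the same fit gave 5 members upregulated, against 15.8% of all tested genes.

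**Figure D1:**
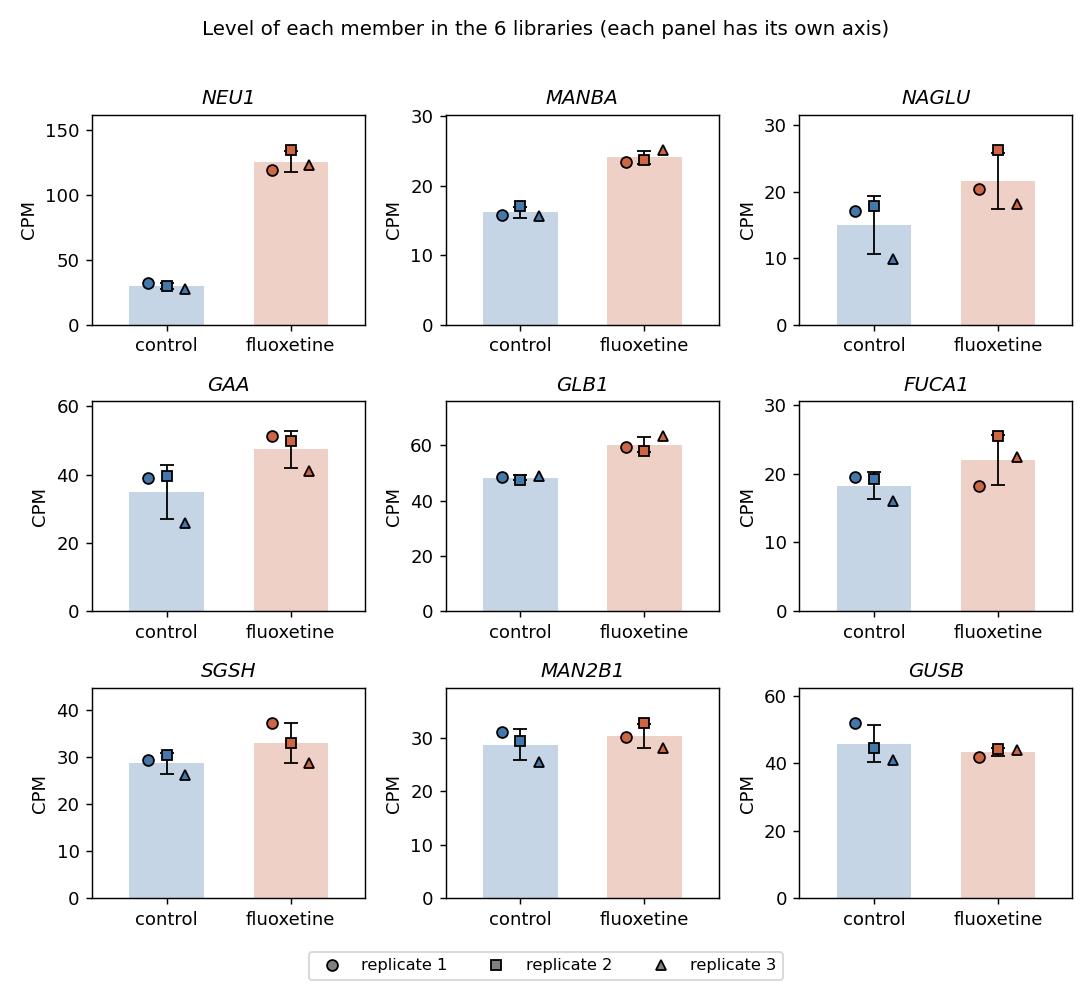
Level of each of the 9 members in CPM (vertical axes, from 0, each panel on its own scale) in control and fluoxetine libraries. Points are libraries, with the replicate number as the shape, bars the mean and lines the SD (n = 3). The NEU1 libraries separate widely, from 27.6 to 32.1 CPM against 118.8 to 134.8 CPM, while those of GUSB, MAN2B1, SGSH and FUCA1 overlap.

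NEU1 encodes the lysosomal sialidase, which removes the terminal sialic acids that cap glycoprotein chains and so opens them to the other enzymes. The gene (ENSG00000204386) occupies bases 31857659 to 31862906 of chromosome 6, minus strand, and no other annotated gene overlaps it. Replicates 1, 2 and 3 held 708, 572 and 766 NEU1 reads among control libraries, and 1956, 2267 and 2115 among the less deeply sequenced fluoxetine libraries. In CPM these were 32.1, 29.8 and 27.6 for control cells and, after fluoxetine treatment, 118.8, 134.8 and 123.2. Every fluoxetine library was thus far above every control library, and the replicates of a group lay close together. The control mean was 29.8 ± 2.26 CPM and the fluoxetine mean 125.6 ± 8.31 CPM (SD, n = 3 each). On the log2 scale the fold change was 2.07 (95% interval 1.88 to 2.27, standard error 0.09), and edgeR gave an adjusted p of 6.59e-07. Among all 15646 tested genes NEU1 held rank 5 by p-value and rank 25 by log2 fold change. It stayed called in each of 15 alternative analyses, with log2 fold changes of at least 1.99 and adjusted p-values of at most 7.43e-05.

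GLB1 encodes β-galactosidase, which takes off the galactose that sialidase exposes and also acts on the ganglioside GM1 and on keratan sulfate. GLB1 (ENSG00000170266) spans 32996608 to 33097230 of chromosome 3, minus strand. In the order of the replicates, control libraries had 48.7, 47.3 and 49.0 CPM and fluoxetine libraries 59.3, 57.9 and 63.2 CPM. The groups did not overlap, and the control libraries differed little from each other. GLB1 rose from a mean of 48.3 ± 0.882 CPM to 60.1 ± 2.75 CPM (SD, n = 3 each), by 0.31 on the log2 scale (95% interval 0.14 to 0.49, edgeR adjusted p = 0.0260). The call was lost without control replicate 1 (adjusted p = 0.0900 from edgeR), control replicate 2 (0.146), fluoxetine replicate 1 (0.139) or fluoxetine replicate 3 (0.181), and without the filter on low counts (0.0776), while the log2 fold change stayed between 0.25 and 0.35 over the 15 alternatives. Exons of GLB1 share 83 bases with TMPPE on the same strand, which had 16 to 42 counts per library.

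MANBA encodes β-mannosidase, which cleaves the last mannose of the core of N-linked glycans. The gene (ENSG00000109323) spans 102631488 to 102760994 of chromosome 4 on the minus strand. Control libraries had 15.8, 17.0 and 15.6 CPM, and fluoxetine libraries 23.4, 23.7 and 25.2 CPM. Here too the groups were well apart relative to their spread. MANBA rose from 16.2 ± 0.759 CPM to 24.1 ± 0.965 CPM (SD, n = 3 each), by 0.58 on the log2 scale (standard error 0.10, 95% interval 0.36 to 0.79, adjusted p = 0.00458 from edgeR), and it was called in all 15 alternatives, with a highest adjusted p-value of 0.0404. A pseudogene, LRRC37A15P, shares 1138 exonic bases with it on the same strand and had at most 13 counts in a library.

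The remaining enzymes of glycoprotein breakdown, MAN2B1 and FUCA1, did not pass the test. MAN2B1, the lysosomal α-mannosidase (ENSG00000104774, chromosome 19, 12646511 to 12666742, minus strand), had 31.1, 29.4 and 25.4 CPM in control and 30.2, 32.7 and 28.1 CPM in fluoxetine libraries. These ranges overlap from 28.1 to 31.1 CPM, and the log2 fold change was 0.08 (95% interval -0.16 to 0.32, adjusted p = 0.644 from edgeR). MAN2B1 shares 704 exonic bases with AC010422.3 and 435 with AC010422.5 on the same strand, and neither has a row in the deposited table. FUCA1, the α-fucosidase (ENSG00000179163, chromosome 1, 23845077 to 23868294, minus strand), had 19.5, 19.3 and 16.0 CPM in control and 18.2, 25.4 and 22.4 CPM in fluoxetine libraries. Fluoxetine replicate 1 lay within the control range, and the log2 fold change was 0.27 (95% interval -0.03 to 0.58, adjusted p = 0.229 from edgeR). It was 0.15 when control replicate 3 was left out and 0.12 when fluoxetine replicate 2 was.

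GAA encodes acid α-glucosidase, the enzyme that degrades glycogen in lysosomes and is missing in Pompe disease. GAA (ENSG00000171298) lies on chromosome 17 from 80101556 to 80119879 on the plus strand, and no annotated gene overlaps it. In the order of the replicates, control libraries had 39.2, 39.6 and 25.9 CPM and fluoxetine libraries 51.2, 49.9 and 41.2 CPM. Control replicate 3 was lower than the other control libraries, and fluoxetine replicate 3 lower than the other fluoxetine libraries, just above the highest control. The log2 fold change was 0.45 (standard error 0.16, 95% interval 0.10 to 0.80, edgeR adjusted p = 0.0910), so GAA was not called. Without control replicate 3 it was 0.23.

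Among the enzymes of glycosaminoglycan breakdown, none of NAGLU, SGSH and GUSB passed the adjusted threshold of edgeR, and at an unadjusted p-value under 0.05 only NAGLU did. NAGLU, which removes N-acetylglucosamine from heparan sulfate (ENSG00000108784, chromosome 17, 42536172 to 42544449, plus strand), had 17.1, 17.9 and 9.94 CPM in control and 20.5, 26.3 and 18.2 CPM in fluoxetine libraries. As for GAA, control replicate 3 was the lowest library, and the groups did not overlap. The log2 fold change was 0.54 (standard error 0.21, 95% interval 0.07 to 1.01, edgeR adjusted p = 0.124), and it was 0.27 when control replicate 3 was left out and 0.34 when fluoxetine replicate 2 was. SGSH, the sulfamidase of the same pathway (ENSG00000181523, chromosome 17, 80206716 to 80220923, minus strand), had 29.4, 30.5 and 26.2 CPM in control and 37.3, 33.0 and 28.8 CPM in fluoxetine libraries. The groups overlap through fluoxetine replicate 3, and the log2 fold change was 0.20 (95% interval -0.05 to 0.46, adjusted p = 0.283 from edgeR). For SGSH it was 0.11 when control replicate 3 was left out and 0.08 when fluoxetine replicate 1 was. SGSH shares 153 exonic bases with CARD14 and 8 with SLC26A11 on the other strand. Whether the counting used strand is not given in the sources used here. NAGLU shares 379 exonic bases with AC067852.1 on the same strand, which has no row in the deposited table.

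GUSB encodes β-glucuronidase, which acts on several glycosaminoglycans and often serves as a reference gene in quantitative PCR. The gene (ENSG00000169919) spans 65960684 to 65982314 of chromosome 7, minus strand. Replicates 1, 2 and 3 had 51.9, 44.6 and 41.1 CPM in control and 41.9, 44.2 and 43.8 CPM in fluoxetine libraries. All fluoxetine libraries fell within the control range. GUSB was the only member with a log2 fold change below 0, at -0.08 (standard error 0.10, 95% interval -0.31 to 0.14, adjusted p = 0.620 from edgeR), an interval that leaves out increases of more than 1.10-fold. With 1 library left out, the value for GUSB lay between -0.02 (control replicate 1) and -0.19 (control replicate 3), and that of MAN2B1 was also below 0 in 2 of these fits. The count of GUSB is uncertain because 6 pseudogenes named after GUSB are in the table, with 1416 counts in all beside 5328 for GUSB. How reads from near-identical copies were counted is not given in the sources used here. Those pseudogenes together had 11.4 to 13.1 CPM in control and 10.6 to 11.5 CPM in fluoxetine libraries.

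**Figure D2:**
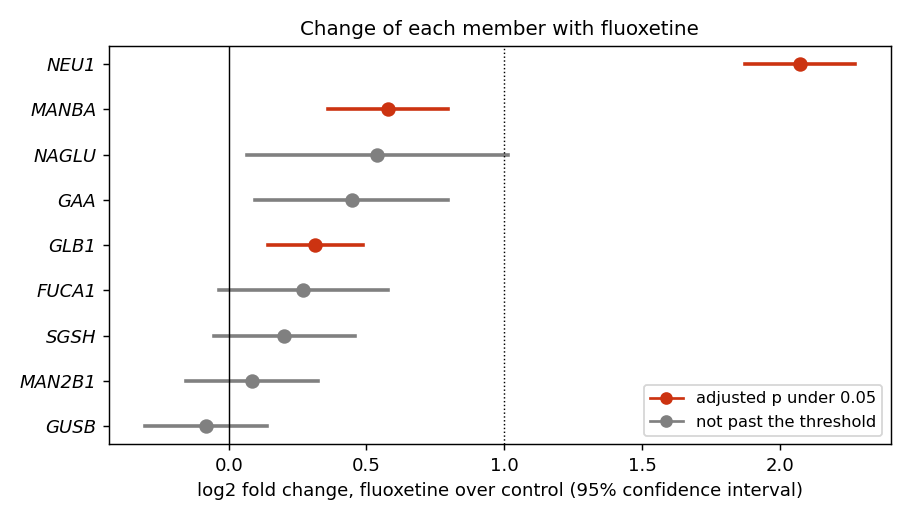
Log2 fold change of fluoxetine over control for each member (horizontal axis), with the 95% confidence interval from edgeR as a line. The dotted line marks a fold change of 2. The interval of NEU1, from 1.88 to 2.27, lies above the upper end of each other member's interval, the highest of which is 1.01 for NAGLU.

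The members therefore did not move by one common factor. The count ratio of NEU1 to each other member was formed within each library, which cancels depth and normalization, and compared between the groups in 8 pairs. NEU1 to GUSB gave 0.618, 0.667 and 0.672 in control libraries and 2.83, 3.05 and 2.81 in fluoxetine libraries. NEU1 to MANBA, the member with the next largest log2 fold change, gave 2.03, 1.75 and 1.76 in control and 5.07, 5.70 and 4.88 in fluoxetine libraries. In all 8 pairs every fluoxetine ratio exceeded every control ratio. NEU1 had the largest fold change of the members in these same data, and its counts enter all 8 pairs. The separation of the ratios therefore describes that rise again and adds no independent support. The mean log2 ratio to MANBA, the pair that differed least, was 0.88 in control and 2.38 in fluoxetine libraries, and that to GUSB, the pair that differed most, -0.62 and 1.53. The two-sided exact permutation p-value was 0.1 for each pair, the smallest that 3 libraries against 3 can give, and 0.1 after Benjamini-Hochberg adjustment over the 8 pairs. NEU1 took 11.3% ± 0.422 (SD, n = 3) of the summed counts of the 9 members in control cells and 30.8% ± 1.01 (SD, n = 3) after fluoxetine treatment. The summed level of the other 8 was 252.8, 245.7 and 209.1 CPM in control and 281.9, 293.1 and 270.9 CPM in fluoxetine libraries.

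To compare levels between genes, CPM was divided by the exonic length of each gene in kilobases. In control cells GUSB (11.5 CPM per kilobase) and GLB1 (11.1) stood highest, without separation between them, followed by FUCA1 (8.92). GAA (6.77), NEU1 (6.19), MAN2B1 (5.33), NAGLU (4.99) and SGSH (4.28) formed a run in which no neighbours were separated by their libraries, and MANBA (1.38) was lowest and apart. After fluoxetine treatment NEU1 moved from rank 5 to rank 1, at 26.0 ± 1.72 CPM per kilobase (SD, n = 3), and its lowest library (24.6) exceeded the highest library of GLB1 (14.5), which came next. MANBA remained last at 2.05 ± 0.0822 CPM per kilobase (SD, n = 3). Exonic length was counted over all annotated transcripts, which lowers the value of a gene where the cells use shorter ones. It is 11743 bases for MANBA, and 4822 bases for NEU1, whose exons merge into 2 blocks. The ranks between genes in either group depend on these lengths.

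Control replicate 3, in which GAA and NAGLU were low, also differed from the others in the base composition of its counts. Across 15600 tested genes, which are not independent, the Pearson correlation of GC content with the deviation of a library from the mean was -0.41 in control replicate 3 but 0.26 and 0.33 in the other control libraries, and -0.07, 0.17 and -0.28 in the fluoxetine libraries in the order of their replicates. GAA (65.1% GC), NAGLU (63.5%) and SGSH (63.1%) have the most GC-rich transcripts of the members, and MANBA (45.8%) the least. With the trends of GC content and length removed from each library, an analysis added after the data were seen, 6 members were called, with GAA at 0.51 on the log2 scale (edgeR adjusted p = 5.19e-04), NAGLU at 0.66 (adjusted p = 0.00175) and FUCA1 at 0.35 (adjusted p = 0.0472) added to NEU1, MANBA and GLB1. In that analysis 22.4% of all tested genes were called, against 13.1% without it.

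**Figure D3:**
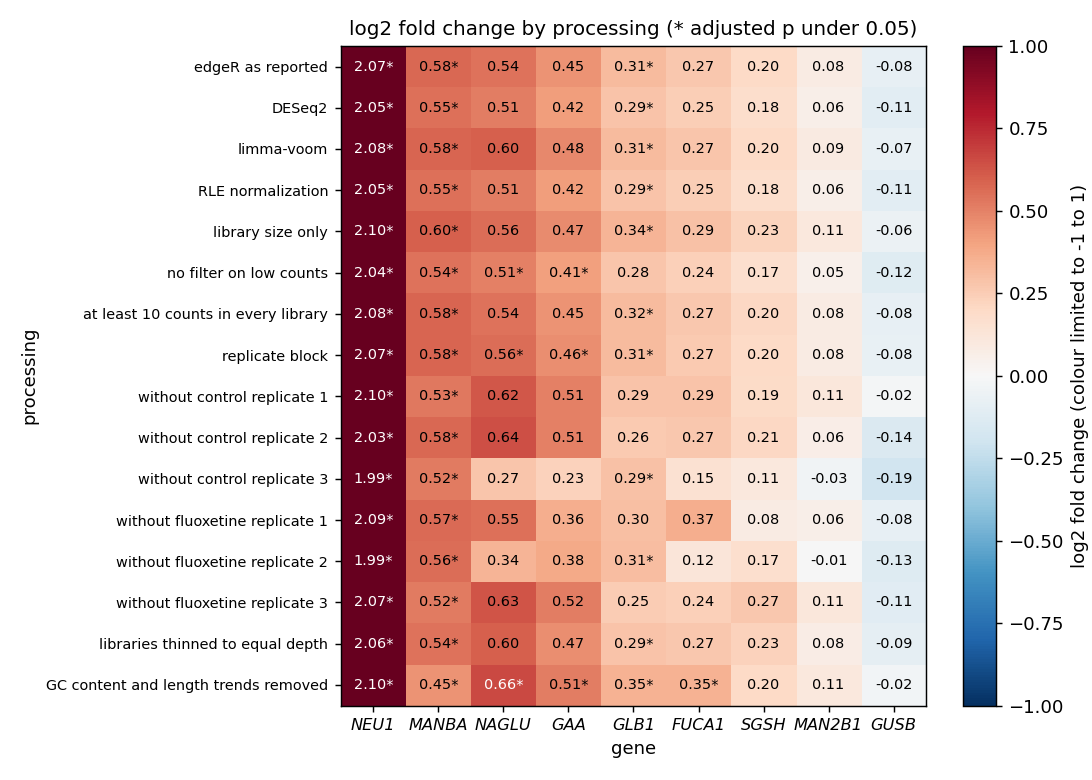
Log2 fold change of each member (columns) under each analysis (rows), with an asterisk where the adjusted p-value was under 0.05 and the colour limited to -1 to 1. NEU1 and MANBA carry the asterisk in every row, GUSB, MAN2B1 and SGSH in none, and without control replicate 3 GAA is at 0.23 and NAGLU at 0.27.

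The sialidase does not work alone. CTSA, the protective protein also called cathepsin A, binds NEU1 and GLB1 in 1 complex, and NEU1 is unstable and inactive without it. CTSA had 104.0, 89.9 and 82.5 CPM in control and 169.7, 183.8 and 174.2 CPM in fluoxetine libraries, with 0.93 as the log2 fold change (95% interval 0.73 to 1.14, edgeR adjusted p = 1.58e-04). No library of either group overlapped the other, as for NEU1. The ratio of NEU1 to CTSA counts was 0.309, 0.331 and 0.334 in control and 0.700, 0.733 and 0.707 in fluoxetine libraries (two-sided exact permutation p = 0.1, the smallest possible). Per kilobase of exon, CTSA was above NEU1 in each library, with 17.8 against 6.66 CPM in control replicate 1 and 31.4 against 28.0 CPM in fluoxetine replicate 2. That order depends on the exonic lengths over all annotated transcripts, 5856 bases for CTSA and 4822 for NEU1.

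Other genes of the pathway were read from lists written from general knowledge, but with earlier results of these data known. The shares called therefore describe these lists and add no independent support. Of 20 other lysosomal glycan enzymes, all tested, 6 were upregulated (30.0%, against 7.76% of all tested genes) and 0 downregulated, with a median log2 fold change of 0.30. Among them were HYAL1, a hyaluronidase (0.90), HEXA, which acts on ganglioside GM2 (0.88), GALNS, a sulfatase of keratan sulfate (0.59), and HGSNAT, the acetyltransferase of heparan sulfate breakdown (0.48), the edgeR adjusted p-values being 2.45e-04 to 0.0177. None of the 20 had a fold change of 2 or more, the highest log2 value being that of HYAL1. The most abundant ones that were not called were GLA, the α-galactosidase, at 0.17 on the log2 scale (edgeR adjusted p = 0.183), and IDS, the iduronate sulfatase, with 0.28 (adjusted p = 0.0908). GALNS lost its call without fluoxetine replicate 1 or fluoxetine replicate 3, with adjusted p-values of up to 0.112, and the other 5 kept theirs in all 15 alternatives.

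Of 11 genes for partners and mannose 6-phosphate sorting, 5 were upregulated (45.5%, against 7.76% of all tested genes) and 0 downregulated, with a median of 0.38. Beside CTSA they were IGF2R and M6PR, the mannose 6-phosphate receptors, SORT1, a sorting receptor, and GNPTAB, which encodes the catalytic subunits of the transferase that makes the tag. IGF2R went from 317.0 to 427.6 CPM in control to 499.4 to 696.5 CPM in fluoxetine libraries, 0.69 on the log2 scale (edgeR adjusted p = 0.00836). M6PR rose by 0.46 (adjusted p = 0.00571), SORT1 by 0.56 (adjusted p = 0.0236) and GNPTAB by 0.38 on the log2 scale (adjusted p = 0.0495, the closest to the threshold). The most abundant genes that were not called were GGA2, an adaptor of the receptors, with 0.08 (adjusted p = 0.594), and GGA3, with 0.02 (adjusted p = 0.883). GNPTAB was called in 8 of the 15 alternatives and lost its call also with limma-voom, RLE normalization and equal depth, and SORT1 was called in 11. IGF2R was called in 13 and lost its call without control replicate 2 or fluoxetine replicate 1. M6PR was called in 14 and lost its call without fluoxetine replicate 1. The edgeR adjusted p-values of these 2 receptors reached 0.0573 and 0.0552. The count of 5 was 1 without fluoxetine replicate 1, 2 without control replicate 2, and 3 without control replicate 1 or fluoxetine replicate 3. In the order named, these fits called 3.54%, 5.82%, 7.54% and 5.79% of all tested genes in either direction. With all libraries that share was 13.1%.

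Enzymes that act on similar sugar bonds outside the lysosome had a median near that of all tested genes. Of 26 such genes with counts, 21 were tested, with a median log2 fold change of 0.07. Of these 0 were called upregulated, against 7.76% of all tested genes, and among 21 genes a count of 0 is not far from that share. The sialidase NEU3 of the plasma membrane had 0.05 (adjusted p = 0.805 from edgeR), against 2.07 for NEU1. PYGB and GANAB, a glycogen phosphorylase and the glucosidase of the endoplasmic reticulum, were the most abundant of those not called, with 0.05 (adjusted p = 0.630) and -0.01 (adjusted p = 0.963). GLB1L3, a gene related to GLB1, was the only one called, as downregulated, from 4.68 ± 0.839 CPM to 2.40 ± 0.370 CPM (SD, n = 3 each), -0.95 on the log2 scale (edgeR adjusted p = 0.0149). That call was lost without control replicate 2 or fluoxetine replicate 1, with adjusted p-values of up to 0.0841. At an unadjusted p-value under 0.05, MAN1A2 (0.39) and MGEA5 (0.27) also had higher and MOGS (-0.25) lower levels. Without control replicate 3 the number called upregulated was 4 and the number called downregulated 2. That fit called 23.0% of all tested genes in either direction. A difference between this list and the lysosomal ones was not tested.

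**Figure D4:**
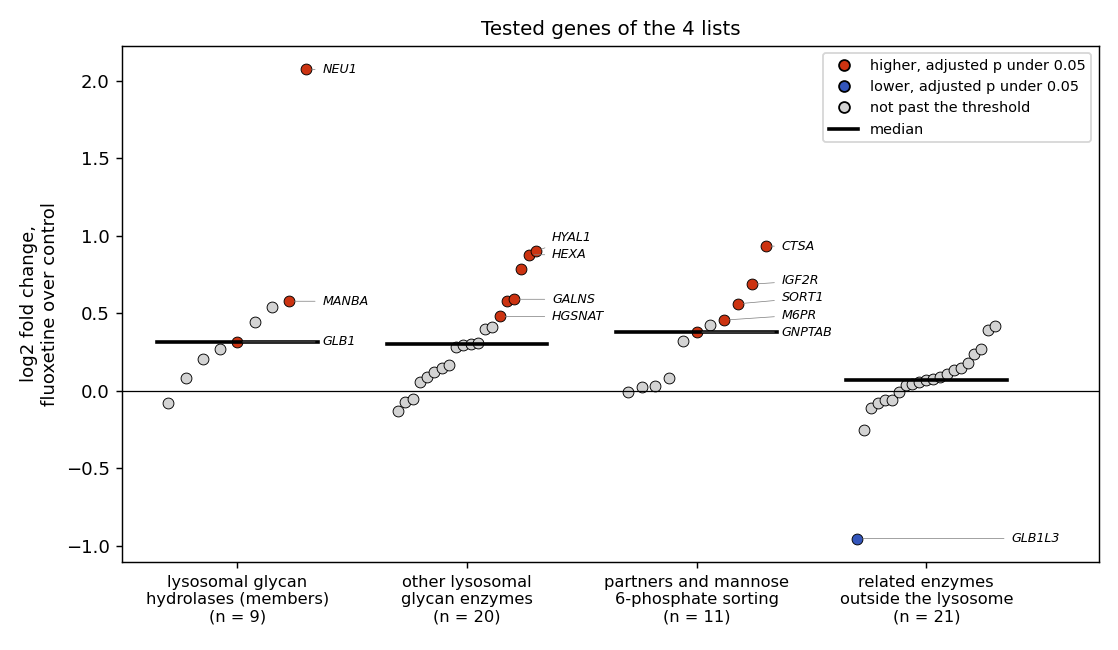
Log2 fold change of fluoxetine over control (vertical axis) for each tested gene of the members and of the 3 other lists, sorted within each list, with the median as a black line. Called genes that the text describes are named. NEU1 at 2.07 is the highest point and GLB1L3 at -0.95 the lowest. The called genes of the other lysosomal glycan enzymes and of the partner and sorting genes lie between 0.38 and 0.93 above zero.

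The promoter letters were also counted in these lists. CACGTG was found in 2 of 6 windows of the members (33.3%), 4 of 20 of the other lysosomal glycan enzymes (20%), 6 of 14 of the partner and sorting genes (42.9%) and 1 of 31 of the enzymes outside the lysosome (3.23%), against 7.26% of all windows, some genes having several windows. Genes with the letters were not always called and genes without them were. CTSA, IGF2R, M6PR and GALNS hold CACGTG and were upregulated, whereas GAA, with 2 copies of TCACGTGA, was not called, and neither were SUMF1, NAGPA, GNPTG, HPSE, ARSB, ARSK and SULF2, which hold CACGTG. M6PR, HPSE, ARSB and SULF2 hold it in 1 of several windows. GLB1, HYAL1, SORT1 and GNPTAB were called without a match in any of their windows. No match says only that these letters are absent from that window.

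Over the 6 libraries, the genes outside the list whose log2 level was most alike to the mean standardised level of the members were NUDT14, ASB13, ALDH3B1, GGT1 and MVP, with Pearson correlations between 0.992 and 0.996 as a description. Their log2 fold changes were 0.26 to 0.89. Among the members themselves the correlation with that mean was highest for NAGLU (0.96) and GAA (0.96), 0.85 for NEU1, and lowest for GUSB (0.15), and the points share the group difference and the differences between libraries described for control replicate 3.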

How the data were processed

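The authors deposited 1 table with the raw counts of reads per gene in each of 6 libraries (3 control, 3 fluoxetine), sequenced as paired-end reads, without normalization or pooling. The submitters' processing notes name fastp 0.20.0, HISAT2 2.1.0, HTSeq 0.10.0 and DESeq2 1.18.1, and the annotation and strand setting are not given in the sources used here. The deposited table also holds the authors' log2 fold changes and their p-values, which were not used, nor were its adjusted p-values. Coordinates matched those of GENCODE release 29 (GRCh38) for 96.81% of the 31635 shared genes.

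The test was edgeR 4.0.16 under R 4.3.3 (glmQLFit and glmQLFTest, TMM, filterByExpr, no covariate), with Benjamini-Hochberg adjustment over 15646 genes. The test was checked on counts made with known changes. Standard errors and 95% intervals come from that fit. Exonic length and GC content (known for 99.7% of tested genes) are from GENCODE, and promoter sequences from RefSeq. Named genes are the members, the called genes of 3 lists (at most 6 a list), the 2 most abundant genes not called in each, and the 5 genes most like the members, with NEU3, the uncalled genes that hold CACGTG, those at an unadjusted p-value and the marker genes named beside them after their values were seen. The members and lists were chosen with earlier results of these data known. Alternatives were DESeq2 1.42.0, limma-voom (limma 3.58.1), RLE factors, library size only, no filter, a block for the replicate number, a minimum of 10 counts in each library, equal depth (16157507 counts), leaving out each library and, added after the data were seen, removal of GC and length trends. Replicates of a group differed by more than sampling noise (chi-square per degree of freedom 3.69 to 25.2), so all were kept. Some genes of the lists are counted with them and not reported here by name.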

Additional observations from a re-analysis of the deposited data

How the results depend on the processing

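Over the 15 alternatives NEU1 and MANBA stayed called, and GUSB, MAN2B1 and SGSH stayed uncalled. The number of members called upregulated was 3 as reported, 4 without the filter on low counts and 5 with the replicate block. With GC content and length trends removed it was 6. It was 2 without control replicate 1, control replicate 2, fluoxetine replicate 1 or fluoxetine replicate 3, and 3 without control replicate 3 or fluoxetine replicate 2. At an unadjusted p-value it was 5 (15.8% of all tested genes were higher at that threshold), and with a fold change of at least 2 it was 1. The further calls in the replicate block were GAA (adjusted p = 3.14e-05 from edgeR) and NAGLU (2.30e-05). Without the filter on low counts GAA and NAGLU were called too (0.00467 and 0.00326) and GLB1 was not. In these fits edgeR estimated an infinite prior degree of freedom, so each gene's p-value rests on the spread of genes at its level rather than on its own. The replicate numbers were not treated as pairs, since deviations of same-numbered libraries correlated at 0.03, 0.12 and 0.39 over genes, and 4018 genes were called with the block against 2047 without it. The number of genes called was 2909 without the filter on low counts and 3489 with GC content and length trends removed. Without single libraries it was 1191 (control replicate 1), 919 (control replicate 2), 3633 (control replicate 3), 572 (fluoxetine replicate 1), 2212 (fluoxetine replicate 2) and 935 (fluoxetine replicate 3). The log2 fold change of MAN2B1 was between -0.031 and 0.11 when 1 library was left out, being below zero without control replicate 3 (-0.031) and without fluoxetine replicate 2 (-0.0076), and the cause was not tested.

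For partner and sorting genes the number called upregulated was between 1 and 5 when 1 library was left out, 4 with limma-voom, RLE normalization or equal depth, and 7 with the replicate block or with GC content and length trends removed. For enzymes outside the lysosome it was 1 with DESeq2, 2 without the filter, 4 with the replicate block, 1 at equal depth, 2 with GC content and length trends removed, and 0 to 4 with 1 library left out, and the number downregulated was 2 without the filter, 2 with the block and 0 to 2 with 1 library left out. Calls over all tested genes, in either direction, also differed between these fits. Their share was 13.9% with DESeq2, 12.2% with limma-voom, 13.5% with RLE normalization and 9.16% without the filter. It was 25.7% with the replicate block, 13.1% at equal depth and 22.4% with GC content and length trends removed. With 1 library left out it lay between 3.54% and 23.0%. The cause of the differences between analyses was not tested.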
